A study of Mus musculus with 6 samples.

Results

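Amino acid supply genes were examined in lung group 2 innate lymphoid cells (ILC2s) that lacked or carried SIRPα, an inhibitory receptor that binds CD47. The genes were 33 columns of the deposited count table, grouped as ATF4 stress response genes, serine and one-carbon enzymes and amino acid transporters, out of 17831 genes in the table. All 33 were present and all 33 passed the filter on low counts, which left 13623 genes to test. WT mice (genotype CB57BL/6 in the labels) and SIRPα KO mice (genotype SIRPalphatm1Ynliu/J), aged 6 to 8 weeks, both received 0.5 µg of recombinant mouse IL-33 intranasally on 3 days. Live CD45+ lineage- CD127+ ST2+ cells were sorted on day 4 and kept in culture with IL-2 and IL-7, for 18 h in the study's results text and 24 h in its legend. RNA was sequenced from 3 WT and 3 SIRPα KO libraries, each made from 10 pg of RNA.

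Cells that run short of amino acids carry uncharged tRNAs, which activate the kinase GCN2 (gene Eif2ak4). GCN2 phosphorylates the initiation factor eIF2α, general translation falls, and the mRNA of the transcription factor ATF4 is translated more. ATF4 then raises the transcription of genes that import amino acids, make serine, asparagine and proline, and feed 1-carbon units from serine into the folate cycle for purine and thymidylate synthesis. ATF4 is controlled largely at translation, so its mRNA level is not a measure of its activity. Activated lymphocytes are known to raise amino acid uptake and serine use, and lung ILC2s exposed to IL-33 make large amounts of IL-5 and IL-13.

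ATF4 pairs with C/EBP proteins on a composite DNA site, written here as TGATGNAA and searched on both strands from 250 bases before to 50 bases after the start of each gene. RefSeq windows of GRCm38.p6 were held for 29 of the 33 genes, and not for Ppp1r15b, Slc7a5, Slc1a5 and Slc38a1. The letters were found in 7 of the 29 (24.1%), against 4.51% of all 27025 genes with a window and 2.75% of the 9501 tested genes with one. The 7 were Trib3, Chac1, Asns, Pycr1, Slc1a4, Slc7a7 and Slc7a11. The windows of Ddit3 and Ddit4, which fell in SIRPα KO like Trib3, held no match. In Trib3 the match begins after the start, at base 15, and in Slc1a4 at base -4, so that it crosses the start. A stretch is printed for 6 of these to show the site in Trib3, which fell in SIRPα KO, beside 5 genes that did not pass the test, 5′ to 3′ on the strand of the gene, with the match in capitals.
Trib3, chr2:152344028-152344057, minus strand: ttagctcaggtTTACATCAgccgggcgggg
Chac1, chr2:119351034-119351071, plus strand: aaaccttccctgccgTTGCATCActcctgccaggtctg
Asns, chr6:7693210-7693247, minus strand: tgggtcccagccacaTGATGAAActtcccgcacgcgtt
Pycr1, chr11:120643829-120643866, minus strand: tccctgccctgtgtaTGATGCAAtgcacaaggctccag
Slc1a4, chr11:20332699-20332728, minus strand: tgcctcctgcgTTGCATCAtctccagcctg
Slc7a11, chr3:50443657-50443694, minus strand: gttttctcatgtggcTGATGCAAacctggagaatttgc
TTACATCA and TTGCATCA are matches on the other strand. A match describes these letters and not a bound site.

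Between 13980499 and 19051507 reads per library fell on genes. Levels are given as counts per 1000000 reads of a library (CPM) after TMM scaling, and a fold change is the log2 of SIRPα KO over WT with its standard error (SE). WT replicate 3 stood apart, with correlations of 0.853 to 0.931 with the other libraries. Some libraries share a code in the labels: WT replicate 1 is 37 and WT replicate 2 is 37V1, while SIRPα KO replicate 2 is 44 and replicate 3 is 44V1. The design text of the series speaks of duplicates. If libraries of 1 code come from 1 sample, each group has 2 samples and the p-values below are too small. Nothing in the labels says that the libraries came from separate mice, so p-values measure the spread between libraries. The ILC2 markers Gata3 (846 to 1078 CPM over the 6 libraries), Il1rl1 (376 to 937 CPM) and Il5 (8448 to 13241 CPM) were high in every library. Sirpa itself was low, at 8.57, 6.83 and 4.83 CPM in WT and 3.07, 4.46 and 1.74 CPM in SIRPα KO, and its fold change of -1.12 did not pass the test (adjusted p = 0.115). Markers of other cells moved with genotype too. The summed level of 6 B cell markers was 216 to 479 CPM in WT and 23.1 to 84.6 CPM in SIRPα KO, that of 7 T cell markers 205 to 274 CPM and 123 to 132 CPM, and that of 3 NK cell markers 7.42 to 9.67 CPM and 0.383 to 0.682 CPM. The endothelial marker Pecam1 (16.2 to 27.4 CPM in WT, 40.3 to 43.8 CPM in SIRPα KO, adjusted p = 0.0421) and the myeloid marker Itgam (2.55, adjusted p = 0.0454) rose. Itgam alone passed in a list of 8 macrophage and dendritic cell markers. Their summed level overlapped, at 45.2 to 137 CPM in WT and 84.9 to 129 CPM in SIRPα KO. In that list Cd68 (-0.31, adjusted p = 0.635) and Marco (-1.47, adjusted p = 0.566) went the other way. Among the T cell markers Cd3g (-2.45, adjusted p = 0.00375), Trbc1 (-0.96, adjusted p = 0.0228) and Trbc2 (-0.68, adjusted p = 0.0294) fell. Cd3e, a defining T cell marker, was low at 0.397 to 2.42 CPM over the 6 libraries and did not pass (-0.33, adjusted p = 0.78). Cd3d, Cd4 and Trac were not tested. The summed level of 13 ILC2 markers was 15102 to 16265 CPM in WT and 20935 to 21515 CPM in SIRPα KO. Il5 made up most of that sum, and within the list Thy1 (-2.06, adjusted p = 0.0139) and Id2 (-0.65, adjusted p = 0.0154) fell while Il5 (0.49, adjusted p = 0.0138), Il2ra (0.91, adjusted p = 0.0154) and Ptprc (0.90, adjusted p = 0.0484) rose. Their part in the results was not tested, and fewer cells of a type cannot be told apart from less RNA per cell.

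Of the 33 genes, 3 rose in SIRPα KO and 3 fell. The cytosolic folate enzymes Shmt1 and Mthfd1 and the glutamine transporter Slc38a1 rose, and the stress response genes Ddit3, Trib3 and Ddit4 fell. Over all genes tested, 5.94% rose and 5.81% fell (edgeR's quasi-likelihood test, adjusted p under 0.05). For 11 of the 33 genes all SIRPα KO libraries were above all WT libraries, against 21.6% of all genes. For 8 all were below, against 21.2% of all genes, and for 14 the groups overlapped. The median fold change of the 33 genes was 0.021, beside -0.025 over all genes tested. None of the 33 passed the test when the libraries of 1 code were summed, where 10 of all genes passed. The same held when any 1 of the 3 SIRPα KO libraries was left out, where 16 or 17 of all genes passed. In those edgeR fits 11 to 13 of the 33 had an unadjusted p under 0.05, beside 2935 to 3359 of all genes. DESeq2 on all libraries called 13 of the 33 (8 higher, 5 lower), beside 3118 of all genes (1687 higher, 1431 lower). Without WT replicate 3, 3 rose and 4 fell, beside 1464 and 1142 of all genes.

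**Figure D1:**
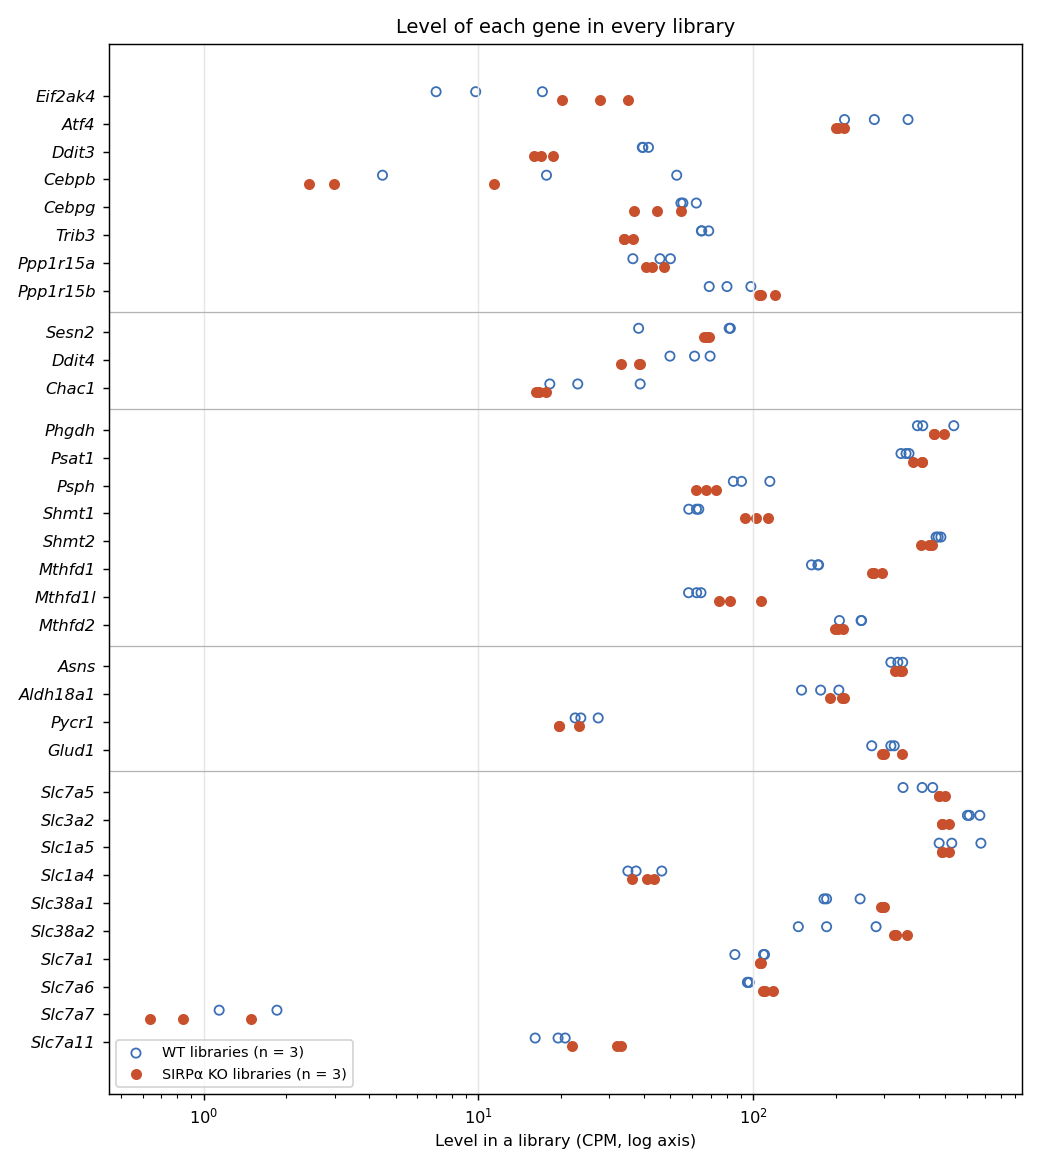
Level of each of the 33 genes in every library in CPM on a log axis, with open circles for the 3 WT and filled circles for the 3 SIRPα KO libraries, and lines between the role groups. Ddit3 and Trib3 lie lower and Shmt1 and Mthfd1 higher in all 3 SIRPα KO libraries, while Asns at 317 to 350 CPM overlaps. Slc7a7 had 0 reads in WT replicate 1, which is not drawn.

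The first group holds the kinase, ATF4 and the proteins that act with or against it. Of its 8 genes, 2 fell, none rose and 6 did not pass the test. Ddit3 encodes CHOP, a transcription factor of the stress response that can promote cell death. Ddit3 was at 39.5, 39.7 and 41.6 CPM in the WT libraries and at 15.9, 16.9 and 18.7 CPM in the SIRPα KO libraries. The groups were far apart compared with the spread inside them, and Ddit3 fell by 1.23 on the log2 scale (SE 0.16, adjusted p = 0.00958). Ddit3 lies on mm10 chromosome 10 from 127290774 to 127296288, and 4.0% of its exon bases overlap exons of Mars on the opposite strand. Trib3 encodes a pseudokinase that binds ATF4 and CHOP and dampens them. Trib3 was at 68.9, 65.0 and 64.8 CPM in WT and at 36.6, 33.9 and 33.9 CPM in SIRPα KO. Again the groups did not overlap, and Trib3 fell by 0.93 (SE 0.13, adjusted p = 0.0124). Trib3 lies on chromosome 2 from 152337422 to 152344032.

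Atf4 itself was at 215, 276 and 366 CPM in WT and at 203, 214 and 200 CPM in SIRPα KO. Its highest value was in WT replicate 3, and the lowest WT library was only just above the highest SIRPα KO library. The fold change of Atf4 was -0.47 (SE 0.18) and did not pass the test (adjusted p = 0.124). It was -0.25 without WT replicate 3 and -0.21 with an offset for transcript length and GC content. Set per length within each library, the level of Ddit3 was 0.383, 0.30 and 0.237 of that of Atf4 in WT and 0.164, 0.165 and 0.195 in SIRPα KO. The Ddit3 to Atf4 ratio was therefore lower in every SIRPα KO library, by a log2 difference of -0.79.

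Eif2ak4, the amino acid sensing kinase, went the other way. It was at 9.78, 17.1 and 7.02 CPM in WT and at 27.8, 35.1 and 20.2 CPM in SIRPα KO. All SIRPα KO libraries were above all WT libraries, but the spread inside each group was wide, and the fold change of 1.30 (SE 0.36) missed the threshold (adjusted p = 0.0536). Libraries of 1 code also differed for Eif2ak4, by 1.75-fold between WT replicates 1 and 2 and by 1.74-fold between SIRPα KO replicates 2 and 3.

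Cebpb and Cebpg encode C/EBP partners of ATF4. Cebpb was at 52.7, 4.48 and 17.7 CPM in WT and at 2.43, 2.99 and 11.4 CPM in SIRPα KO. It had the fold change furthest from 0 in the list, -2.16, with an SE of 0.89 (adjusted p = 0.142). WT replicates 1 and 2, which share a code, differed by 11.8-fold for Cebpb. Its groups overlapped, and 20.7% of its exon bases overlap exons of Tmem189 on the opposite strand. Cebpg was at 54.6, 62.1 and 55.5 CPM in WT and 44.5, 54.6 and 36.7 CPM in SIRPα KO, with a fold change of -0.34 (SE 0.18, adjusted p = 0.218). Ppp1r15a and Ppp1r15b encode the GADD34 and CReP subunits that direct eIF2α dephosphorylation. Their fold changes were -0.011 (SE 0.17, adjusted p = 0.973) and 0.43 (SE 0.16, adjusted p = 0.108), and for Ppp1r15b the SIRPα KO libraries, at 105 to 120 CPM, were all above the WT libraries, at 69.2 to 98.1 CPM.

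The other ATF4 response genes were Sesn2, Ddit4 and Chac1, of which Ddit4 fell. Ddit4 encodes REDD1, an inhibitor of mTORC1. It was at 69.7, 49.8 and 61.2 CPM in WT and at 33.1, 38.4 and 38.9 CPM in SIRPα KO. The groups did not overlap, and Ddit4 fell by 0.71 (SE 0.17, adjusted p = 0.0377). Sesn2, a leucine sensor that also restrains mTORC1, was at 81.8, 82.6 and 38.3 CPM in WT and at 68.0, 66.0 and 69.2 CPM in SIRPα KO. The SIRPα KO libraries sat inside the WT range, since WT replicate 3 was low, and the fold change was 0.0035 (SE 0.27). Without WT replicate 3 it was -0.27. Chac1, which degrades glutathione, was at 18.2, 23 and 38.8 CPM in WT and at 17.6, 16.2 and 16.6 CPM in SIRPα KO. Its fold change was -0.67 (SE 0.28, adjusted p = 0.151), with the highest value again in WT replicate 3. Without that library it was -0.29, and with the offset for length and GC content -0.24.

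**Figure D2:**
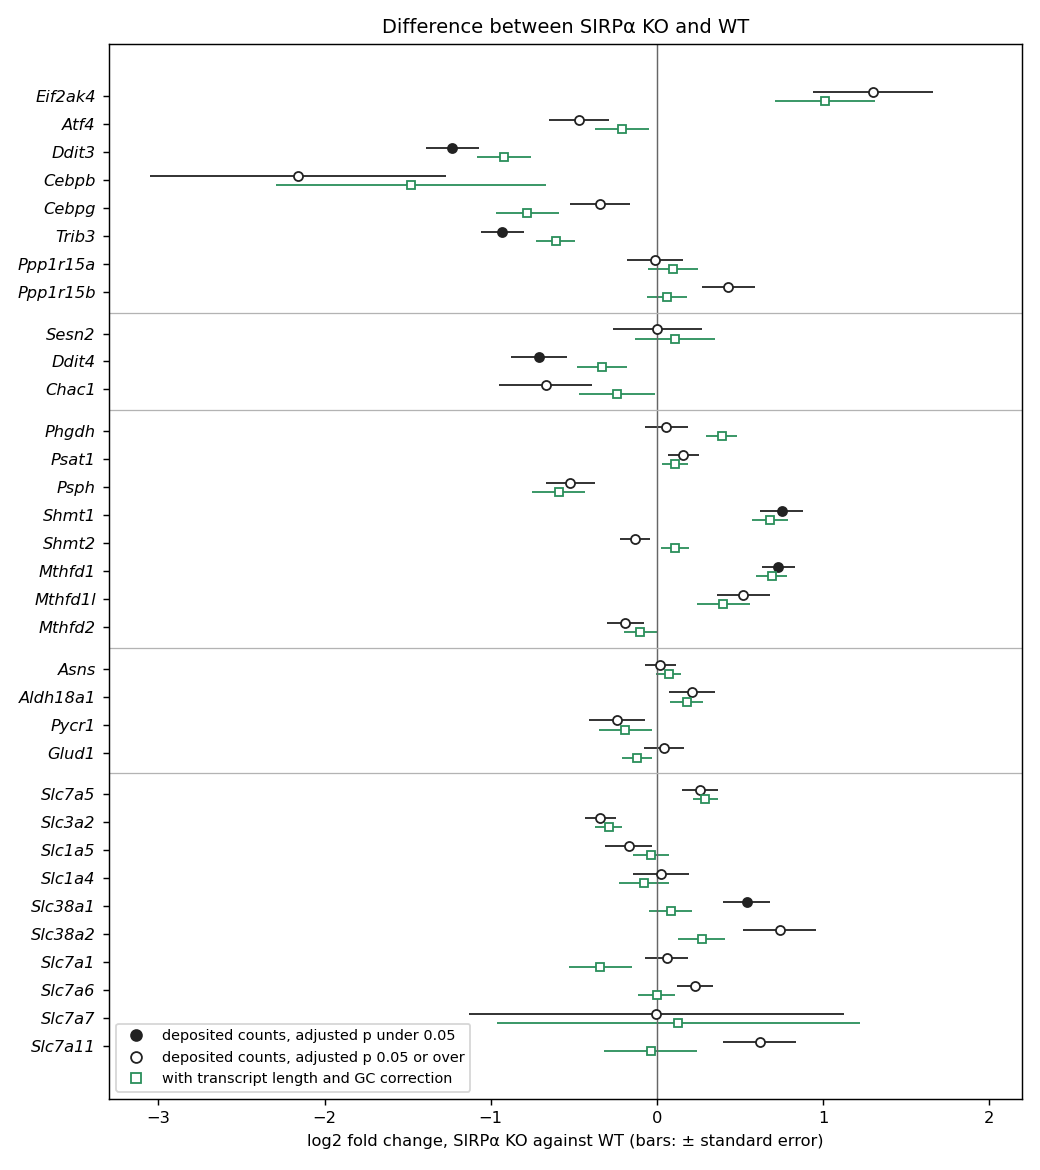
Fold change of each of the 33 genes as log2 of SIRPα KO over WT (n = 3 libraries each), with bars of ± 1 SE. Circles are from the deposited counts, filled where the adjusted p is under 0.05, and squares after an offset for length and GC content. Slc38a1 moves from 0.54 to 0.084 and Phgdh from 0.056 to 0.39.

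Of the 8 serine and one-carbon enzymes, the cytosolic enzymes Shmt1 and Mthfd1 rose, and the other 6 did not pass the test. Shmt1 moves the 1-carbon unit of serine onto folate in the cytosol. It was at 63.4, 62.2 and 58.3 CPM in WT and at 102, 113 and 93.5 CPM in SIRPα KO, a rise of 0.75 (SE 0.13, adjusted p = 0.0171). Mthfd1, the cytosolic enzyme with 3 folate activities, was at 163, 173 and 172 CPM in WT and at 271, 294 and 276 CPM in SIRPα KO. Its rise was 0.73 (SE 0.099, adjusted p = 0.0116). For both genes the WT libraries lay close together, far below the SIRPα KO libraries. Shmt1 lies on chromosome 11 from 60788104 to 60811718 and Mthfd1 on chromosome 12 from 76255298 to 76319803.

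Shmt2, the mitochondrial counterpart of Shmt1, was at 463, 482 and 471 CPM in WT and at 438, 449 and 409 CPM in SIRPα KO. It did not overlap between groups, but the difference was small, with a fold change of -0.13 (SE 0.091, adjusted p = 0.359). Mthfd2, a mitochondrial counterpart of Mthfd1, had a fold change of -0.19 (SE 0.11, adjusted p = 0.277). Mthfd1l, which releases formate from mitochondria, was at 58.2, 64.6 and 62.3 CPM in WT and at 82.4, 107 and 75.4 CPM in SIRPα KO. Its fold change of 0.52 (SE 0.16) did not pass the test (adjusted p = 0.0732). Set per length within a library, Shmt1 was at 0.110, 0.103 and 0.0990 of Shmt2 in WT and at 0.187, 0.202 and 0.183 in SIRPα KO, a log2 difference of 0.87. Mthfd1 was at 0.507, 0.450 and 0.448 of Mthfd2 in WT and at 0.821, 0.929 and 0.895 in SIRPα KO, a log2 difference of 0.91. In both pairs the cytosolic enzyme stood closer to its mitochondrial counterpart in every SIRPα KO library.

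The 3 enzymes that make serine from a glycolytic intermediate did not pass the test. Phgdh, the first of them, was at 396, 414 and 537 CPM in WT and at 493, 454 and 454 CPM in SIRPα KO. Its groups overlapped, with a fold change of 0.056 (SE 0.13, adjusted p = 0.799). The table also lists 7 near-identical pseudogene copies of Phgdh, which held reads equal to 4.54% of its own. Psat1, the second enzyme, had a fold change of 0.16 (SE 0.093, adjusted p = 0.26). Psph, the last, was at 84.7, 90.7 and 115 CPM in WT and at 62.1, 73.4 and 67.2 CPM in SIRPα KO, with a fold change of -0.52 (SE 0.15, adjusted p = 0.0669). Exons of Cct6a on the opposite strand cover 10.4% of the exon bases of Psph.

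The asparagine, proline and glutamate enzymes overlapped between the groups in all 4 cases. Asns, which makes asparagine and is a classical ATF4 target, was at 336, 317 and 350 CPM in WT and at 348, 342 and 327 CPM in SIRPα KO. The 6 libraries could not be separated by genotype, with a fold change of 0.021 (SE 0.095, adjusted p = 0.897). Aldh18a1 and Pycr1, the first and last enzymes of proline synthesis from glutamate, had fold changes of 0.21 (SE 0.14, adjusted p = 0.321) and -0.24 (SE 0.17, adjusted p = 0.383). Pycr1 was at 27.3, 22.5 and 23.6 CPM in WT and at 19.6, 19.6 and 23.2 CPM in SIRPα KO. Glud1, glutamate dehydrogenase, had a fold change of 0.045 (SE 0.12, adjusted p = 0.82). None of the 4 was called by edgeR or DESeq2, and none had an unadjusted p under 0.05 in edgeR.

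Of the 10 amino acid transporters, 1 rose and 9 did not pass the test. Slc38a1 and Slc38a2, which carry small neutral amino acids such as glutamine with sodium, were higher in all 3 SIRPα KO libraries than in any WT library. Slc38a1 was at 181, 245 and 185 CPM in WT and at 298, 291 and 300 CPM in SIRPα KO, a rise of 0.54 (SE 0.14, adjusted p = 0.0444). Slc38a2, an ATF4 target, was at 185, 280 and 146 CPM in WT and at 331, 362 and 325 CPM in SIRPα KO. The WT libraries were spread for Slc38a2, and its fold change of 0.74 (SE 0.22) did not pass the test (adjusted p = 0.0672).

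Slc7a5 (LAT1) imports leucine and other large neutral amino acids as a pair with the heavy chain CD98, encoded by Slc3a2. Slc7a5 was at 450, 412 and 351 CPM in WT and at 499, 476 and 475 CPM in SIRPα KO, a fold change of 0.26 (SE 0.11, adjusted p = 0.163). Slc3a2 was at 612, 602 and 668 CPM in WT and at 515, 487 and 487 CPM in SIRPα KO. Its fold change was -0.34 (SE 0.092, adjusted p = 0.0523). The light and heavy chain genes thus lay on opposite sides of 0, and their groups did not overlap in either case. Set per length within a library, Slc7a5 was at 0.588, 0.547 and 0.421 of Slc3a2 in WT and at 0.774, 0.782 and 0.780 in SIRPα KO, a log2 difference of 0.60. All 4 ratios were chosen after their values were seen. Each had a two-sided exact permutation p of 0.1, the smallest that 3 against 3 libraries allow, and 0.1 after adjustment over the 4.

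**Figure D3:**
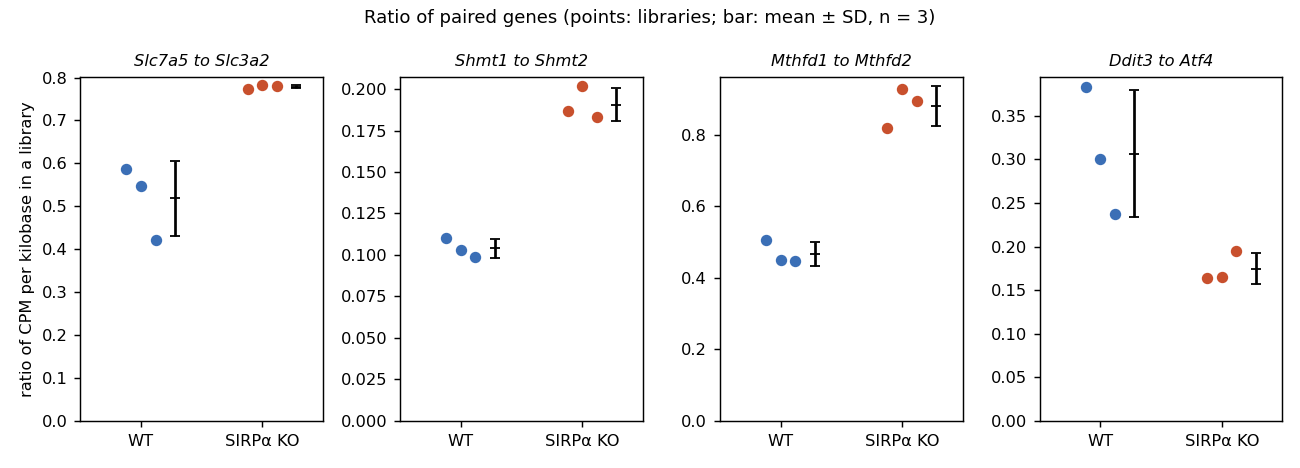
Ratio of CPM per kilobase of transcript between paired genes in each library, with points for libraries and bars for the mean ± SD (n = 3). The Slc7a5 to Slc3a2 ratio is 0.519 ± 0.0872 in WT and 0.779 ± 0.00418 in SIRPα KO, and the groups do not overlap in any of the 4 panels.

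Slc1a5 (ASCT2), which exchanges glutamine, was at 674, 528 and 475 CPM in WT and at 485, 488 and 516 CPM in SIRPα KO, with a fold change of -0.17 (SE 0.14, adjusted p = 0.42). The related Slc1a4 had a fold change of 0.025 (SE 0.17). Slc7a1, a carrier of arginine and lysine, had one of 0.06 (SE 0.13). Slc7a6, another light chain that pairs with CD98, was at 95.5, 96.8 and 95.3 CPM in WT and at 110, 118 and 109 CPM in SIRPα KO, a fold change of 0.23 (SE 0.11, adjusted p = 0.188). Slc7a11 (xCT), which imports cystine, was at 19.5, 16.1 and 20.7 CPM in WT and at 21.9, 31.9 and 33.1 CPM in SIRPα KO, a fold change of 0.62 (SE 0.22, adjusted p = 0.0952). Slc7a7 was at 1.85 CPM or less in every library, and its fold change of -0.0024 had an SE of 1.13, so no difference could be measured at this depth.

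Fold changes followed transcript length across the table. The median was -0.55 in the tenth of genes with the shortest transcripts and 0.47 in the tenth with the longest, counting those whose mean log2 CPM was 3 or more. The 33 genes showed the same order, with a median of -0.67 for the 9 whose transcript has at most 2100 bases, 0.014 for the 18 between and 0.58 for the 6 over 5000 bases. The genes that fell had short transcripts (Ddit3 969 bases, Ddit4 1755 bases, Trib3 2026 bases), and Slc38a1 had a long one (7266 bases). The part of transcript length in the differences was not tested by itself, and a fit with an offset for length and GC content was run beside the first. In it the median of the short genes was -0.24 and that of the long genes 0.072.

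**Figure D4:**
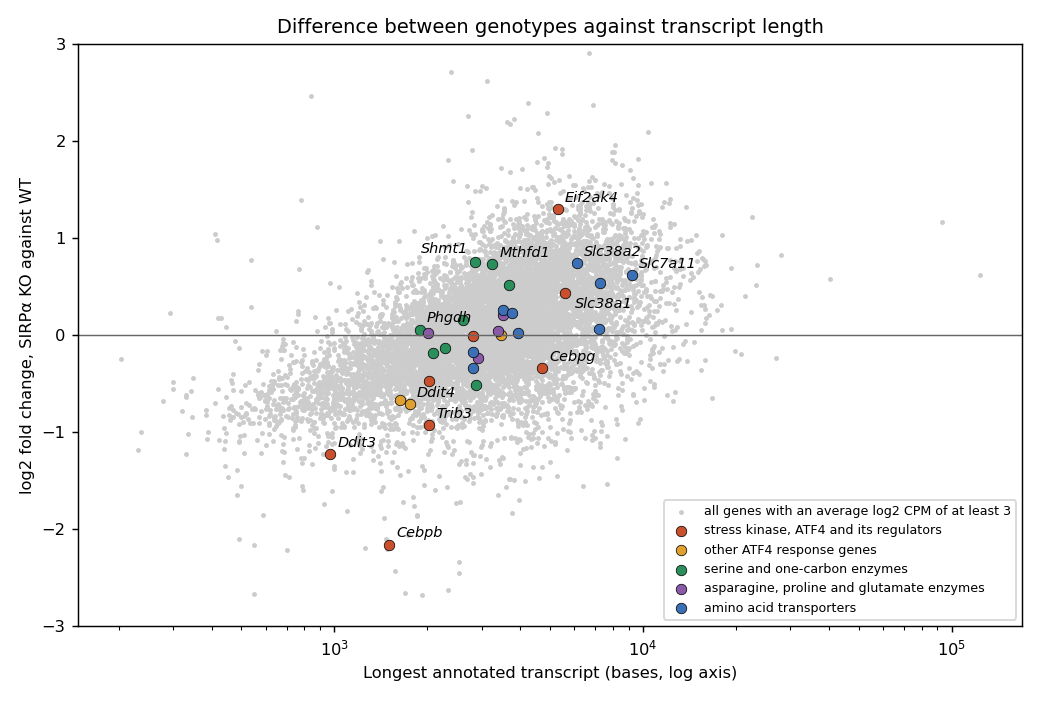
Fold change (log2, SIRPα KO over WT) against the longest annotated transcript in bases on a log axis, with the 9124 genes of mean log2 CPM 3 or more in grey and the genes examined here in colour by role. Ddit3 (969 bases, -1.23) lies below the median of -0.55 of the tenth with the shortest transcripts. Slc7a11 (9223 bases, 0.62) lies near the median of 0.47 of the tenth with the longest. Slc7a7 is left out for its low level, and 14 grey genes lie beyond the axis limits of 3.

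After the correction 3 of the 33 rose and 3 fell, against 4.21% and 4.75% of all genes. Ddit3 (-0.92, adjusted p = 0.0188), Trib3 (-0.61, adjusted p = 0.0276), Shmt1 (0.68, adjusted p = 0.0157) and Mthfd1 (0.69, adjusted p = 0.00919) passed in both fits. Over all alternatives run, the adjusted p ranged from 6.16e-11 to 0.13 for Ddit3, from 1.8e-09 to 0.154 for Trib3, from 3.89e-06 to 0.13 for Shmt1 and from 2.97e-09 to 0.13 for Mthfd1, with the low ends from DESeq2. Slc38a1 (0.084, adjusted p = 0.721) and Ddit4 (-0.33, adjusted p = 0.211) no longer passed. Cebpg (-0.78, adjusted p = 0.0462) and Phgdh (0.39, adjusted p = 0.0436) passed only with it, and their adjusted p ranged up to 0.541 and 0.995 over the alternatives. With the correction and libraries of 1 code summed, none of the 33 passed in edgeR, beside 14 of all genes. In that fit 12 of the 33 had an unadjusted p under 0.05, beside 3167 of all genes. With the correction and without WT replicate 3, edgeR called 4 of the 33 higher and 3 lower, beside 802 and 844 of all genes. With the correction on all libraries, Slc7a11 moved to -0.038, Slc38a2 to 0.27 and Ppp1r15b to 0.059. The 4 ratios kept their direction, with corrected log2 differences of 0.58 for Slc7a5 to Slc3a2, 0.56 for Shmt1 to Shmt2, 0.79 for Mthfd1 to Mthfd2 and -0.71 for Ddit3 to Atf4.

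Other genes of the same pathways were counted from lists drawn up by function, with earlier results of these data known. The lists held 23, 20, 22, 12, 17 and 23 tested genes, of which 19 passed, beside 1600 of the 13623 genes tested. None of the 19 passed when libraries of 1 code were summed (adjusted p = 0.13 to 0.17), where 10 of all genes passed. The same held without any 1 SIRPα KO library, where 16 or 17 of all genes passed. With the replicate block 12 of the 19 passed, and Gart, Paics and Eif2s1 were among those that did not. Among 23 other eIF2α kinases, eIF2B subunits and ATF4 response genes, 2 rose and 2 fell, against 5.94% and 5.81% of all genes. Eif2s1, which encodes eIF2α, rose by 0.40 (SE 0.098, adjusted p = 0.0408), and Eif2b5, the catalytic subunit of its exchange factor, by 0.54 (SE 0.14, adjusted p = 0.0426). Atf5, a factor related to ATF4, was at 7.19, 4.76 and 10.5 CPM in WT and at 1.60, 2.10 and 1.61 CPM in SIRPα KO, and fell by 2.08 (SE 0.39, adjusted p = 0.0215). Nupr1, a stress-induced cofactor, fell by 0.65 (SE 0.17, adjusted p = 0.0473). With the correction Eif2s1 no longer passed (0.092, adjusted p = 0.551).

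Among 22 tested one-carbon and folate genes outside the 33, 6 rose and 1 fell, against 5.94% and 5.81% of all genes. Their median was 0.40, beside -0.025 over all genes tested. With the correction for length and GC content their median was 0.22, beside -0.016 over all genes. With it 5 rose and 2 fell, against 4.21% and 4.75% of all genes. In the first fit Ppat, Gart and Paics, 3 enzymes of purine synthesis, rose by 0.98 (SE 0.12, adjusted p = 0.00955), 0.49 (SE 0.099, adjusted p = 0.0257) and 0.46 (SE 0.10, adjusted p = 0.03). Pfas (0.0086, adjusted p = 0.977) and Atic (0.14, adjusted p = 0.758), also of purine synthesis, did not pass. Ppat was at 72.9, 82.1 and 67.3 CPM in WT and at 153, 144 and 141 CPM in SIRPα KO. Gldc, of the glycine cleavage system, rose by 1.38 (SE 0.27, adjusted p = 0.0239), Mtr, methionine synthase, by 0.82 (SE 0.22, adjusted p = 0.0484) and Slc25a32, the mitochondrial folate carrier, by 0.83 (SE 0.20, adjusted p = 0.0373). The last 2 did not pass with the correction. Aldh1l1, which oxidizes formyl folate, was at 0.748, 1.92 and 7.95 CPM in WT and had 0 reads in SIRPα KO. Its adjusted p was 0.0311, and its level was at least 19.8-fold lower when set against a floor of 3 reads per library (0.178 CPM). Without WT replicate 3, the highest library, the level was at least 7.48-fold lower.

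Of 17 other amino acid transporters, 3 rose and none fell, against 5.94% and 5.81% of all genes. Slc7a2, an arginine carrier, was at 4.08, 2.63 and 4.50 CPM in WT and at 10.8, 16.8 and 11.6 CPM in SIRPα KO, a rise of 1.80 (SE 0.31, adjusted p = 0.0178). Slc36a4 rose by 1.17 (SE 0.25, adjusted p = 0.0284) and the taurine carrier Slc6a6 by 0.59 (SE 0.13, adjusted p = 0.0332). With the correction Slc36a4 alone of these passed (0.67, adjusted p = 0.0416). Of 12 other proline, glutamine, glutamate and aspartate enzymes, none was called by edgeR and 1 by DESeq2. In edgeR 3 of them had an unadjusted p under 0.05, beside 4355 of the 13623 genes tested. With the correction 2 rose, against 4.21% of all genes. They were Got1 (0.62, adjusted p = 0.0293) and Pycrl (0.46, adjusted p = 0.0477), and Pycrl was named after its values were seen. The smallest p-values there were those of Got1 (0.45, adjusted p = 0.0546), Ass1 (-0.42, adjusted p = 0.141) and Gls2 (1.36, adjusted p = 0.153).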

How the data were processed

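Cultured lung ILC2s were sequenced in 3 WT and 3 SIRPα KO libraries, grouped by the labels' genotype. The authors used Partek and STAR, the mm10 genome and GENCODE M21 genes (the submitters' notes give Partek 10.0 and STAR 2.7.8) and deposited expected counts per gene, unscaled. Whether strand was used and how shared reads were counted is not given in the sources used here. The table holds 17831 genes, none with a total under 10, and 13980499 to 19051507 reads per library. The authors' 17630 other gene columns were used as the same unit.

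Estimated counts were rounded, filtered with filterByExpr (10 reads in a library of median size, 15 over all), given TMM factors and tested by edgeR 4.0.16 (quasi-likelihood, genotype alone, R 4.3.3) with Benjamini-Hochberg adjustment over 13623 genes and a threshold of 0.05. DESeq2 1.42.0 was an alternative, and genes without an adjusted p in it were not counted. SEs come from the F statistic. Length is that of the longest M21 transcript. For the correction, the deviations of each library were fitted by splines of length and of GC content (5 degrees of freedom each). The fit used 8860 genes outside the member and pathway lists, with cell type markers not left out, and became an offset. BLAST+ 2.17.0 was used to find near-identical copies. The edgeR and DESeq2 fits and the correction were tried on simulated independent libraries with the same spread in both groups. Libraries that share a code, the replicate block and left-out libraries were not simulated. Floors cover counting error only.

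Members, lists, the correction and the alternatives were chosen with earlier results of these data known. Every member was named. Values of every library were given at least for those with an adjusted p under 0.05, the highest level and largest fold change per role group, and Atf4. Pathway genes were named where they passed the threshold, else the 3 smallest p-values of a list. Some others were named after their values were seen. Alternatives were other scalings, filters and thresholds, DESeq2, a replicate block, libraries of 1 code summed, and each library left out. The level of 1 marker gene is not reported here.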

Additional observations from a re-analysis of the deposited data

How the results depend on the processing

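The fit on all 6 libraries called 1600 genes (809 higher, 791 lower). Summing the libraries of 1 code left 10 (9 and 1) with 3359 at an unadjusted p under 0.05, and summing them with the length and GC correction, chosen after seeing the data, left 14 (13 and 1), with 0 of the 33 genes higher and 0 lower in both, 12 at an unadjusted p under 0.05 and a median of -0.045 in the second. Leaving out 1 library gave 16 to 2606 genes, 11 to 1464 higher and 5 to 1142 lower, 0 to 6 and 0 to 4 of the 33 higher and lower, and a median of -0.025 to 0.094. For all genes, the low end came without any 1 SIRPα KO library (16, 17 and 17 genes) and the high end without WT replicate 3. For the 33, the 6 higher and the median of 0.094 came without WT replicate 2. The 4 lower and the median of -0.025 came without WT replicate 3.

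DESeq2 called 3118 genes (1687 and 1431) and 8 and 5 of the 33. An adjusted p under 0.1 called 3054 (1564 and 1490) and 7 and 5. A minimum of 5 CPM called 5 and 5 of the 33, beside 1015 and 1108 of all genes. Without a filter 527 genes were lower. Upper quartile scaling shifted the median of all genes to -0.13 and that of the 33 to -0.079, and called 703 genes higher and 1010 lower. The replicate block left 669 genes higher and 449 lower, and called 4 of the 33 higher and 2 lower. After the mean of each group was subtracted, the log2 levels of same-numbered libraries correlated at -0.143, 0.191 and 0.045. These values show no steady tie between libraries of the same number, and cannot exclude one.

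Some fold changes changed sign, none of them past the threshold under that setting. Most were near 0, but those of Slc7a11 (0.62), Chac1 (-0.67) and Lamtor2 (-0.78, called) were not. With upper quartile scaling, this held for Sesn2 (-0.079), Phgdh (-0.054), Asns (-0.082), Glud1 (-0.051), Slc1a4 (-0.072) and Slc7a1 (-0.045). Without a filter, this held for Ppp1r15a (0.01) and Slc7a7 (0.024). With a minimum of 5 CPM, this held for Sesn2 (-0.037), Phgdh (-0.0025), Asns (-0.033), Glud1 (-0.0039) and Slc1a4 (-0.024). With the replicate block, this held for Slc7a7 (0.62). With the length and GC correction, this held for Ppp1r15a (0.095), Shmt2 (0.11), Glud1 (-0.12), Slc1a4 (-0.08), Slc7a1 (-0.34), Slc7a6 (-0.0016), Slc7a7 (0.13) and Slc7a11 (-0.038). With libraries of 1 code summed, this held for Ppp1r15a (0.093). With the correction and libraries of 1 code summed, this held for Ppp1r15a (0.19), Shmt2 (0.15), Glud1 (-0.13), Slc1a4 (-0.092), Slc7a1 (-0.42), Slc7a6 (-0.045), Slc7a11 (-0.24) and Lamtor2 (0.0058). With the correction and without WT replicate 3, also chosen after seeing the data, this held for Sesn2 (-0.15), Chac1 (0.0034), Shmt2 (0.075), Glud1 (-0.13), Slc1a4 (-0.083), Slc7a1 (-0.11) and Slc7a7 (0.90). Leaving out 1 library turned the sign of Ppp1r15a (-0.12 to 0.089), Phgdh (-0.023 to 0.21), Slc1a4 (-0.05 to 0.15), Slc7a1 (-0.044 to 0.12), Asns (-0.017 to 0.063), Slc7a7 (-0.59 to 0.83), Sesn2 (-0.27 to 0.18) and Glud1 (-0.027 to 0.098).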

Other observations

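The cytosolic aminoacyl-tRNA synthetases, which charge tRNAs with amino acids and include ATF4 targets, had a median fold change of 0.26 over 20 genes. Iars and Lars, which charge isoleucine and leucine tRNAs, rose by 1.01 (SE 0.23, adjusted p = 0.0343) and 0.85 (SE 0.13, adjusted p = 0.0146), and none fell. Lars was at 202, 224 and 167 CPM in WT and at 380, 359 and 330 CPM in SIRPα KO, and Iars at 191, 208 and 105 CPM and 337, 336 and 342 CPM. The 2 that rose compare with 5.94% of all genes. For 12 of the 20 all SIRPα KO libraries were above all WT libraries, against 21.6% of all genes. Both Iars (0.76) and Lars (0.59) passed with the correction for length and GC content, with adjusted p of 0.0257 and 0.0137.

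Of 23 tested genes that sense amino acids above mTORC1, 1 rose and 2 fell, against 5.94% and 5.81% of all genes. Mios, of the GATOR2 complex, was at 27.0, 20.9 and 13.0 CPM in WT and at 61.5, 40.7 and 37.8 CPM in SIRPα KO, a rise of 1.20 (SE 0.30, adjusted p = 0.0439). Lamtor2 and Lamtor4, of the Ragulator complex on lysosomes, fell by 0.78 (SE 0.16, adjusted p = 0.0252) and 1.12 (SE 0.19, adjusted p = 0.0172). With the correction Mios no longer passed (0.92, adjusted p = 0.0617), and the fold change of Lamtor2 was -0.035 (adjusted p = 0.909). With it none of the 23 rose and 2 fell, against 4.21% and 4.75% of all genes. Lamtor4 still fell by 0.50 (adjusted p = 0.0499), and Sesn3 fell with the smaller adjusted p of 0.0054. Sesn3 had not passed in the first fit (-0.45, adjusted p = 0.123) and was named after its values were seen. None of these genes passed when libraries of 1 code were summed, where 10 of all genes passed.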
